A study of Mus musculus with 8 samples.

Results

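The 10 genes described here encode granule proteins, surface glycoproteins and an enzyme that are typical of platelets: *Pf4*, *Ppbp*, *Gp9*, *Gp1ba*, *Gp1bb*, *Gp5*, *Gp6*, *Itga2b*, *Treml1* and *Alox12*. They were taken by symbol from the 33641 gene symbols listed for each of 8 libraries of sorted tumor endothelial cells (TECs). The 10 genes were selected on measured values, with results of the contrast between control and end*Foxf1*+/- libraries already known, so their differences between the groups are given as a description with no test. All 10 were among the 14964 genes that reached 1 TPM in 4 or more libraries, and the 4 control libraries alone were enough for each of them, since the lowest control value of any was 4.62 TPM (*Gp6* in library C1).

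The TECs came from orthotopic lung tumors, grown from mCherry-labelled cells of the mouse Lewis lung carcinoma (LLC) line in the left lung of mice on a C57Bl/6 background and microdissected at day 21. In end*Foxf1*+/- mice (*Pdgfb*-CreER tg/+; *Foxf1* fl/+), tamoxifen activates a Cre recombinase that is driven by the *Pdgfb* promoter and deletes exon 1 from the floxed *Foxf1* allele, while the other allele stays intact. The control mice were littermates with a single transgene, either *Foxf1* fl/+ or *Pdgfb*-Cre tg/+, and the labels do not say which of them each library came from. Mice of both groups were 6 to 8 weeks old when they received 3 mg of tamoxifen by oral gavage, and CD45-CD31+ single live cells were sorted by FACS, with 4 mice named for each group in the series' design text. No source used here says that a library is a single mouse, so whether mice were pooled is not known. The paper names fewer samples per group for one plot of the same RNA-seq, without saying which were used. All 8 libraries are used here. *Pdgfb* is also transcribed outside endothelium, megakaryocytes included, and recombination in such cells was not measured here. Control libraries are called C1 to C4 and end*Foxf1*+/- libraries H1 to H4, ordered by the number that each label carries.

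Platelets are fragments shed by megakaryocytes that have no nucleus but keep megakaryocyte RNA, and like endothelial cells they carry CD31 and lack CD45, the antigens of this sort. They adhere to injured vessel walls through the GPIb-IX-V complex (GP1BA, GP1BB, GP9 and GP5), which binds von Willebrand factor, and through GP6, a collagen receptor. Once activated, they aggregate through integrin αIIbβ3, whose α subunit is the product of *Itga2b*, and release the chemokines PF4 and PPBP from α-granules. In a bulk library of sorted cells, fewer cells of a type and less RNA per cell cannot be told apart.

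The deposited unit is TPM, in which the authors corrected read numbers for transcript length and set the sum of every library to 1000000, so levels can be compared between genes but the depth of a library is unknown. Library H3 stood apart from the others. Its median correlation with the other libraries was 0.795, against 0.892 for H4 and 0.958 to 0.968 for the other 6. The summed TPM of 20 endothelial markers was 773 in H3, 7569 in H4 and 12668 to 16047 in the other 6, and *Pecam1*, the gene of CD31, was at 77.5 TPM in H3 and 914 to 1505 TPM elsewhere. The endothelial markers were thus low against the label in H3, where *Ptprc*, the gene of CD45, was at 91.2 TPM (2.94 to 16.5 TPM elsewhere). Epithelial markers (6 genes) exceeded the endothelial sum in C3 (28899 TPM), H4 (21926 TPM) and H3 (1396 TPM), and summed to 2363 to 10027 TPM in the other 5 libraries. *Foxf1* was at 213, 285, 296 and 331 TPM in C1 to C4 and at 177, 203, 14 and 105 TPM in H1 to H4, without overlap between the groups (log2 difference -1.68 ± 0.72 SE, adjusted p = 0.79 by limma). The median log2 difference over all genes tested was -0.17, and 68.0% of them were below 0.

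All 10 platelet transcripts had a lower mean in end*Foxf1*+/- than in control TECs. Their summed level was 809, 1727, 1404 and 1259 TPM in C1 to C4 and 619, 488, 353 and 917 TPM in H1 to H4. The mean was thus 1300 ± 381 TPM in control libraries and 594 ± 241 TPM (SD, n = 4 each) in end*Foxf1*+/- libraries, 45.7% of the control mean, and the lowest control library (C1) was below the highest end*Foxf1*+/- library (H4). Single genes had between 26.3% (*Gp1bb*) and 60.0% (*Pf4*) of their control mean. The median log2 difference of the 10 genes was -1.48, with a range from -1.68 to -0.72.

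Libraries H1, H2 and H3 were below every control library for all 10 genes, and H4 was below every control library for 4 of them (*Gp9*, *Gp1bb*, *Itga2b* and *Treml1*). The groups therefore did not overlap for these 4 genes, a separation found for 2.31% of all genes tested, and at least 3 of 4 end*Foxf1*+/- libraries were below every control library for 10.2% of all genes tested. After median ratio scaling or quantile normalization the groups did not overlap for 3 of the 10 (lower in 3.09 and 2.71% of all genes). Nothing is read from these counts, because the genes were selected with this contrast known. By limma, 0% of the 14964 genes had an adjusted p under 0.05. Without adjustment 2.77% had a p under 0.05 and were lower, and 2.82% had one and were higher.

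**Figure D1:**
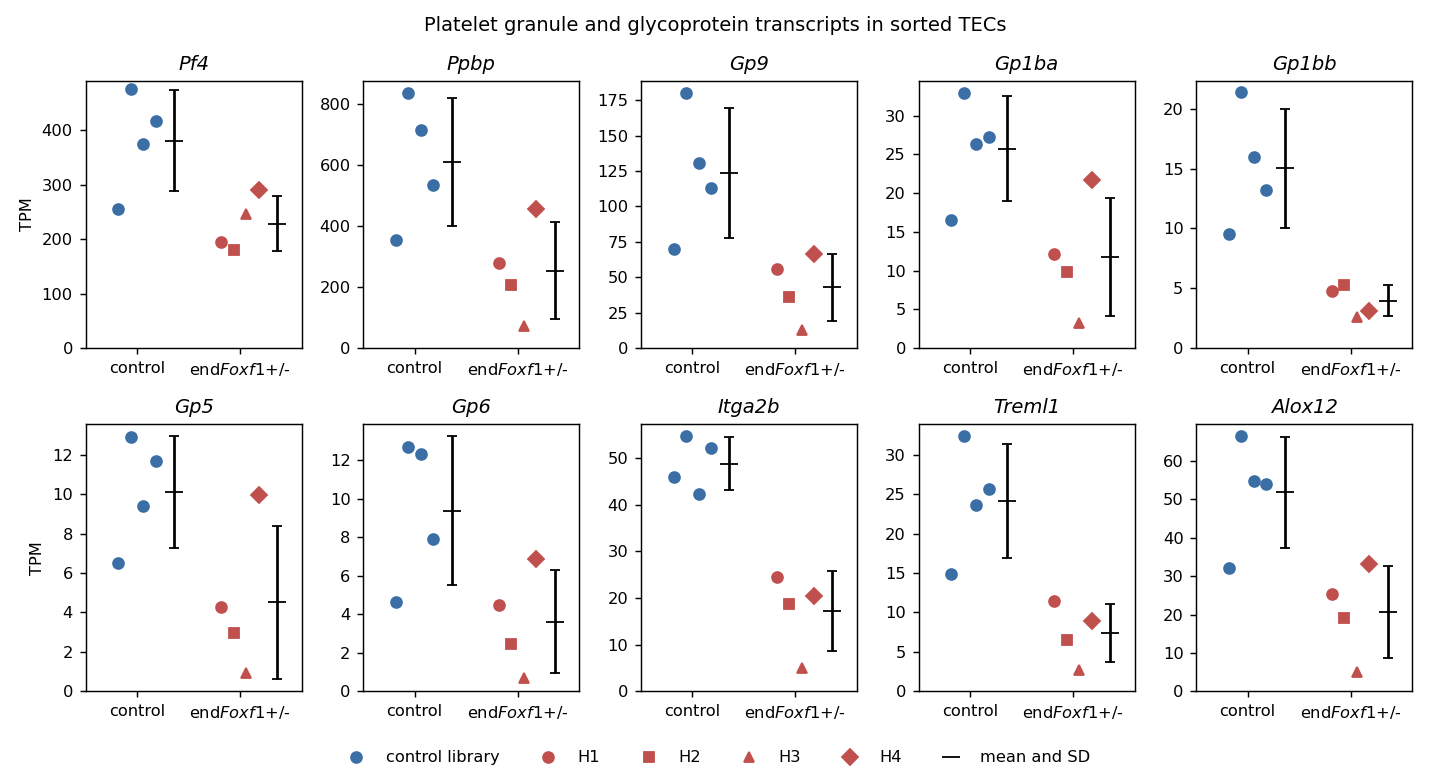
TPM (vertical axes, from 0) of the 10 platelet transcripts in the 4 control libraries (blue circles, C1 to C4 from left to right) and the 4 endFoxf1+/- libraries (red, a symbol for each library), with the group mean and SD in black. H3 (triangle) is the lowest library for all genes but Pf4, and H4 (diamond) lies within the control range for 6 of the 10 genes.

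The 2 α-granule chemokine genes were the most abundant of the set and made up 75.3 to 77.5% of its summed TPM in control libraries. *Pf4* encodes platelet factor 4 (CXCL4), a heparin-binding chemokine, and lies at chr5:90772435-90773383 on the + strand (GRCm38, GENCODE). *Ppbp* encodes pro-platelet basic protein (CXCL7), the precursor of a neutrophil attractant, and lies upstream of *Pf4* in the same chemokine cluster, at chr5:90768518-90770063 on the + strand. *Ppbp* was at 354, 838, 714 and 536 TPM in C1 to C4 and at 281, 206, 73.7 and 456 TPM in H1 to H4. Its mean was 610 ± 211 TPM in control libraries and 254 ± 160 TPM (SD, n = 4 each) in end*Foxf1*+/- libraries, a log2 difference of -1.46 ± 0.53 (SE). H4 was above C1, so the groups overlapped in these libraries.

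*Pf4* was at 256, 475, 375 and 417 TPM in C1 to C4 and at 196, 181, 247 and 290 TPM in H1 to H4. Its mean was 381 ± 93.0 TPM in control libraries and 228 ± 50.0 TPM (SD, n = 4 each) in end*Foxf1*+/- libraries, and its log2 difference of -0.72 ± 0.27 (SE) was the smallest of the 10. *Pf4* differed from the other genes in H3, the library in which the other 9 were at 7.26 to 17.5% of their control mean, since *Pf4* stayed at 64.9% there. The ratio of *Pf4* to *Ppbp* TPM was 0.524 to 0.778 in control libraries, 0.697, 0.877 and 0.636 in H1, H2 and H4, and 3.35 in H3. *Pf4* was the most abundant gene of the set in H3 and second to *Ppbp* in each of the other 7 libraries. *Pf4* is also transcribed in macrophages of several tissues, and the summed TPM of 8 myeloid markers was 8063 in H3, against 1441 to 5082 elsewhere. Most of this sum was *Lyz2* in every library (6870 TPM in H3 and 1351 to 4955 TPM elsewhere). *Cd68*, the next most abundant of them, was at 522 TPM in H3 and at 25.9 to 106 TPM elsewhere. The part of myeloid cells in the *Pf4* level was not tested.

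**Figure D2:**
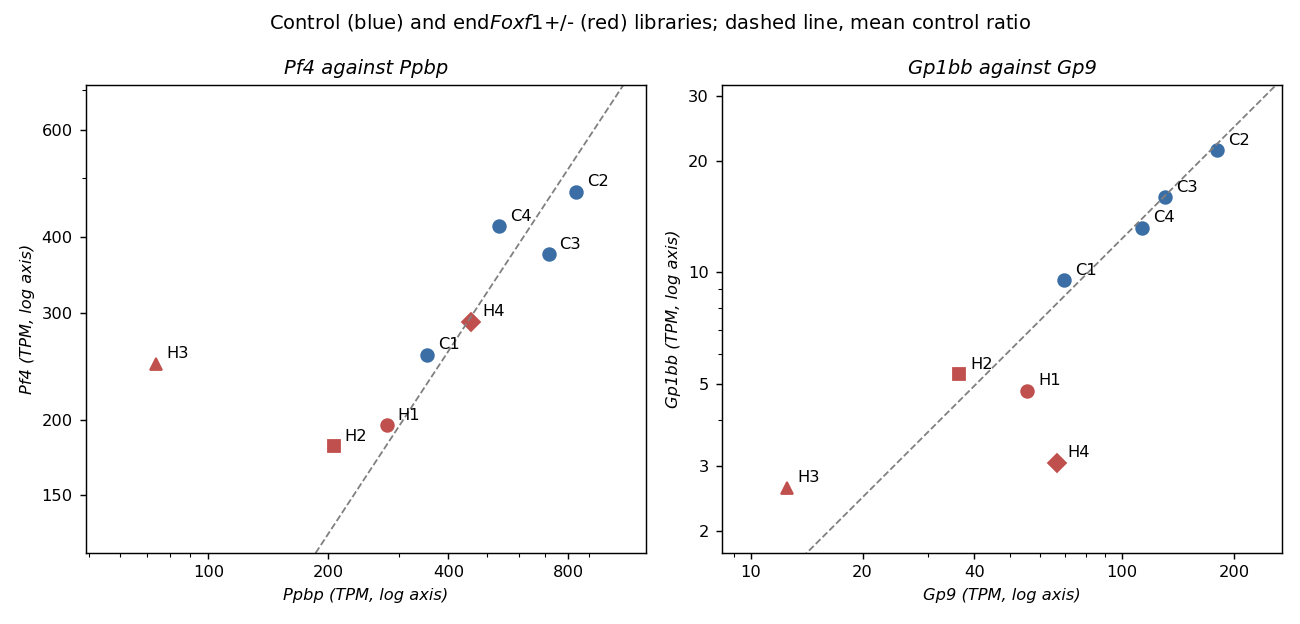
TPM of Pf4 against Ppbp (left) and of Gp1bb against Gp9 (right) in each library, both axes on a log scale, with control libraries in blue, endFoxf1+/- libraries in red and the mean control ratio as a dashed line. H3 lies far above the line for Pf4 (ratio 3.35), and H4 lies below it for Gp1bb (Gp9 to Gp1bb ratio 21.8).

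A group of 4 genes encodes the subunits of the GPIb-IX-V complex: *Gp9* (chr6:87778072-87779768, + strand), *Gp1ba* (chr11:70639122-70642036, + strand), *Gp1bb* (chr16:18620317-18622403, - strand) and *Gp5* (chr16:30307685-30310779, - strand). GP1BA carries the binding site for von Willebrand factor, GP1BB is disulfide-linked to it, GP9 is needed for surface expression of the complex, and GP5 is a thrombin substrate. *Gp9* was at 69.7, 180, 131 and 113 TPM in C1 to C4 and at 55.6, 36.4, 12.5 and 66.7 TPM in H1 to H4. No end*Foxf1*+/- library reached the lowest control library, and the means were 123 ± 45.7 and 42.8 ± 23.8 TPM (SD, n = 4 each), a log2 difference of -1.66 ± 0.50 (SE). *Gp1ba* was at 16.5, 33.0, 26.3 and 27.2 TPM in C1 to C4 and at 12.1, 9.88, 3.24 and 21.7 TPM in H1 to H4. Here H4 lay inside the control range, and the log2 difference was -1.27 ± 0.47 (SE). *Gp5* was at 6.49, 12.9, 9.38 and 11.7 TPM in C1 to C4 and at 4.25, 2.95, 0.906 and 9.98 TPM in H1 to H4, with a log2 difference of -1.25 ± 0.49 (SE). Again H4 was inside the control range, at 98.6% of the control mean.

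*Gp1bb* followed another order in the end*Foxf1*+/- libraries. It was at 9.52, 21.4, 16.0 and 13.2 TPM in C1 to C4 and at 4.79, 5.30, 2.62 and 3.06 TPM in H1 to H4, so H4 was at 20.4% of the control mean although the other 3 subunits were at 54.0 to 98.6% there. The mean was 15 ± 5.0 TPM in control libraries and 3.95 ± 1.30 TPM (SD, n = 4 each) in end*Foxf1*+/- libraries, and the log2 difference of -1.68 ± 0.32 (SE) was the largest of the 10. The ratio of *Gp9* to *Gp1bb* TPM was 7.32 to 8.58 in control libraries and 11.6, 6.87, 4.77 and 21.8 in H1 to H4. The annotated span of *Gp1bb* is shared over 1902 bases with *Sept5* and over 1938 bases with *Gm49601*, both on the same strand. Reads from these genes could have been counted for either, so the *Gp1bb* level is uncertain. *Sept5* was at 0.323 to 1.13 TPM in 7 libraries and at 2.56 TPM in H3.

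*Gp6* (chr7:4363965-4397744, - strand), the collagen receptor, had the lowest control mean of the set, with values from 4.62 to 12.7 TPM in control and from 0.681 to 6.88 TPM in end*Foxf1*+/- libraries. Its log2 difference was -1.30 ± 0.50 (SE), and C1 was below H4. *Itga2b* (chr11:102453297-102470122, - strand), the integrin αIIb subunit, was at 46.0, 54.8, 42.4 and 52.1 TPM in C1 to C4 and at 24.6, 18.7, 5.0 and 20.5 TPM in H1 to H4. Its control libraries were, relative to their mean, the closest to each other of the 10 genes, with a mean of 48.8 ± 5.64 TPM (SD, n = 4) against 17.2 ± 8.49 TPM (SD, n = 4), a log2 difference of -1.63 ± 0.43 (SE), and the groups did not overlap. *Itgb3*, its partner subunit, which endothelial cells also express, was looked up after the values were seen. The ratio of *Itga2b* to *Itgb3* TPM was 1.14 to 1.44 in control libraries and 0.891 to 0.932 in H1, H2 and H3, and it was 0.351 in H4, where *Itgb3* was at 58.4 TPM and above every control library.

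*Treml1* (chr17:48359916-48367176, + strand) encodes TLT-1, a receptor of α-granules that reaches the surface on activation. It was at 14.8, 32.4, 23.6 and 25.7 TPM in C1 to C4 and at 11.5, 6.54, 2.75 and 8.87 TPM in H1 to H4. The groups did not overlap, with means of 24.1 ± 7.24 and 7.42 ± 3.72 TPM (SD, n = 4 each) and a log2 difference of -1.66 ± 0.40 (SE). *Alox12* (chr11:70241457-70255353, - strand) encodes the platelet 12-lipoxygenase, which oxidises arachidonic acid. It was at 32.0, 66.5, 54.8 and 54.0 TPM in C1 to C4 and at 25.3, 19.2, 4.94 and 33.1 TPM in H1 to H4. H4 was just above C1, and the log2 difference was -1.50 ± 0.51 (SE).

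The promoters of genes whose transcripts vary together are shown for 5 of the 10: the 2 chemokine genes and the 3 genes in which both of the motifs searched were found. Each is the stretch of 250 bases before the RefSeq gene start (GRCm38.p6), written 5′ to 3′ on the gene's strand. The capitals mark GATAA, the core letters bound by GATA factors such as the megakaryocyte factor GATA1, and GGAAG, a core of ETS factor sites, each also in its reverse complement (TTATC and CTTCC). Both were searched on both strands, and a GATAA can share its first base with the last base of a GGAAG. The windows are chr5:90772185-90772434 (*Pf4*, +), chr5:90768268-90768517 (*Ppbp*, +), chr6:87777820-87778069 (*Gp9*, +), chr11:70638872-70639121 (*Gp1ba*, +) and chr16:30310782-30311031 (*Gp5*, -).
Pf4: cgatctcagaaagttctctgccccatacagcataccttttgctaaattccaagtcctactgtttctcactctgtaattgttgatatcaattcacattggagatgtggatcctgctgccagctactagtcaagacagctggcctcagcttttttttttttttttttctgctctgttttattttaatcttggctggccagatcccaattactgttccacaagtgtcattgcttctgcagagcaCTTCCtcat
Ppbp: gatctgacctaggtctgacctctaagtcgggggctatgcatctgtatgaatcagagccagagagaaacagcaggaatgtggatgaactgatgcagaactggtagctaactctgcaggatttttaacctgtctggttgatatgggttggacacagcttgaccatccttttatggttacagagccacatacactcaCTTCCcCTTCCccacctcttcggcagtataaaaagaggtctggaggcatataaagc
Gp9: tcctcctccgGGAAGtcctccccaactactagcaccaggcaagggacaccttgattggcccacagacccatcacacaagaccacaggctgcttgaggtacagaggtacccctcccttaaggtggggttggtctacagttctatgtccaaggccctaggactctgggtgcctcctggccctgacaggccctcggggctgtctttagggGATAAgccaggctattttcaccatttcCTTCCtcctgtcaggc
Gp1ba: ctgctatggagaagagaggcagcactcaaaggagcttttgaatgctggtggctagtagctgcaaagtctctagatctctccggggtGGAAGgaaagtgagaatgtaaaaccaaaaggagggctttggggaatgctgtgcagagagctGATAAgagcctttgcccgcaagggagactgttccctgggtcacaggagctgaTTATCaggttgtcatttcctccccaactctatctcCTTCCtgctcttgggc
Gp5: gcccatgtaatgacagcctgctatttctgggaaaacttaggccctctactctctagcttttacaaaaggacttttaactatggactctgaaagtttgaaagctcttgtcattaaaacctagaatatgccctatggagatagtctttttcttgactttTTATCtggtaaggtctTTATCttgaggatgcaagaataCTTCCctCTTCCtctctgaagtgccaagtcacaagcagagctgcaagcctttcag

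GGAAG was in 9 of the 10 windows, with *Gp6* the exception, and in 63.6% of all 27025 promoters of the same length in the table. GATAA was in 4 of 10 (*Gp9*, *Gp1ba*, *Gp5* and *Gp6*), against 23.0% of all promoters, and both were in 3 of 10, against 13.3%. Among the promoters of 14 other platelet genes, 5 held GATAA, 10 held GGAAG and 2 held both. A match is a run of letters and not a site shown to be bound. The windows of *Gp1bb* and *Itga2b* overlap annotated exons over 250 and 180 bases and are not shown.

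The wider platelet and megakaryocyte programme was read from a list of 18 other genes, of which 15 passed the filter. *Cmtm5* was listed at 0 in every library, and *Slc35d3* and *Gfi1b* stayed below the filter. All 15 had a log2 difference below 0, with a median of -0.89 and a range from -1.34 to -0.58 (over all genes the median was -0.17 and 68.0% were below 0), and 0 of 15 had an adjusted p under 0.05 by limma. Without adjustment, 3 of 15 had a p under 0.05, all lower (2.77% of all genes): *Nfe2*, a transcription factor of late megakaryocytes (log2 difference -0.98 ± 0.34 SE), *P2ry12*, the ADP receptor (-0.81 ± 0.33), and *Clec1b*, the podoplanin receptor CLEC-2 (-1.34 ± 0.57). Their adjusted p was 0.79 by limma, and the list, written with earlier results of these data known, is not independent evidence of its direction. *Clec1b* was at 67.9, 80.0, 67.8 and 69.4 TPM in C1 to C4 and at 43.6, 45.5, 5.97 and 43.9 TPM in H1 to H4. *Nfe2* was at 12.5, 10.9, 15.8 and 16.7 TPM in C1 to C4 and at 6.28, 8.93, 3.16 and 9.57 TPM in H1 to H4. The groups did not overlap for these 2 of the 15 genes (2.31% of all genes), and for 1 of them after median ratio scaling. Without H3 the median log2 difference of the 15 genes was -0.48, against -0.89 with it.

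In H1 and H2 both sets were low together, and the 10 genes were the lower set. In H1 the median gene of the 10 was at 47.3% of its control mean and that of the 15 other platelet genes at 59.4%. In H2 the medians were 34.5 and 49.0%, and in H3 they were 10.8 and 11.2%. In H4 they were on opposite sides of the control mean, at 68.5 and 116%. None of the 10 genes was above its control mean in H4, whereas 9 of the 15 others were, and 6 of these were above every control library: *G6b*, an inhibitory receptor, *Tubb1*, the platelet β-tubulin, *Nrgn*, a calmodulin-binding protein, *F5*, coagulation factor V, *Rgs18*, a regulator of G protein signalling, and *Zfpm1*, the GATA1 cofactor FOG-1. The share of all genes above every control library in H4 was not computed, so nothing is read from these counts. *Tubb1* was at 31.4 to 43.3 TPM in control libraries and at 22.8, 11.6, 3.17 and 64.5 TPM in H1 to H4. *Nrgn* was at 17.5 to 39.8 TPM in control libraries and at 21.6, 16.9, 2.19 and 58.2 TPM in H1 to H4. The ratio of *Ppbp* to *Tubb1* TPM was 11.2 to 19.7 in control libraries and 12.3, 17.7, 23.2 and 7.08 in H1 to H4. This difference between the sets was not tested, because the 10 genes were selected on the contrast and the list of other platelet genes was written with results of these data known.

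**Figure D3:**
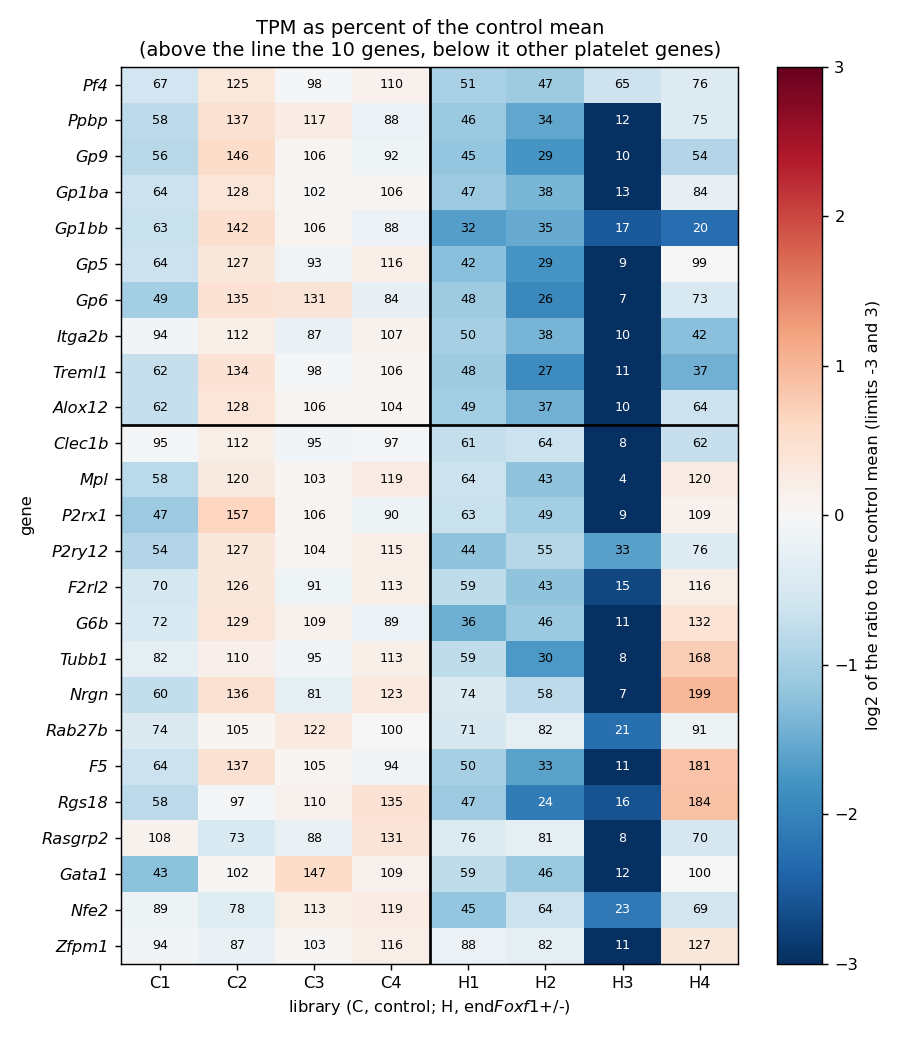
TPM of each gene in each library as a percent of its control mean (numbers), colored by the log2 of that ratio, for the 10 genes (above the line) and 15 other platelet genes (below it). Columns H1 and H2 are blue throughout, H3 is darkest, and in H4 the 10 genes are at 20.4 to 98.6% while the other platelet genes reach 199%.

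Von Willebrand factor, the ligand of the GPIb-IX-V complex, is made by endothelial cells as well as megakaryocytes. *Vwf* was at 639, 617, 329 and 722 TPM in C1 to C4 and at 251, 338, 21.7 and 179 TPM in H1 to H4, a log2 difference of -2.02 ± 0.76 (SE, adjusted p = 0.79 by limma). H2 was just above C3. In the list of 13 genes that platelets share with endothelium, 12 had a log2 difference below 0, with a median of -0.70, and 2 of 13 (*Vwf* and *Gng11*) had an unadjusted p under 0.05, both lower (2.77% of all genes). Of the other most abundant genes of this list, *Esam*, a junction protein, was at 489 to 665 TPM in control libraries and at 638, 640, 34.2 and 460 TPM in H1 to H4. *Cd9*, a tetraspanin, was at 454 to 598 TPM in control libraries and at 412 to 600 TPM in end*Foxf1*+/- libraries. *Sdpr*, the caveolar protein cavin-2, was at 494 to 638 TPM in control libraries and at 530, 448, 42.6 and 187 TPM in H1 to H4 (log2 difference -1.39 ± 0.69 SE, adjusted p = 0.79 by limma). *Gng11*, a G protein γ subunit, was at 261 to 327 TPM in control libraries and at 231, 250, 105 and 171 TPM in H1 to H4. *Esam* was thus inside the control range in H1 and H2, *Sdpr* was below it in H2, H3 and H4, and *Gng11* was below it in each of H1 to H4.

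The 10 transcripts varied together across the 8 libraries. Over the 45 pairs, Pearson's r of log2(TPM + 1) had a median of 0.93 (0.58 to 0.99) and Spearman's rho a median of 0.90 (0.69 to 1). These values include the group difference on which the genes were selected and are a description, with no test. For the deviations from the group means the median r was 0.87 (-0.10 to 0.99). With the 2 libraries farthest from the median of one gene left out, the median r was 0.79 (0.31 to 0.99), and 27 of 45 pairs kept an r above 0.7.

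The tightest pair was *Ppbp* and *Gp6* (r = 0.99, rho = 1), and the loosest was *Pf4* and *Itga2b* (r = 0.58, rho = 0.79), with an r of 0.31 once the 2 farthest libraries were left out. *Pf4* and *Gp1bb* accounted for the looser pairs. The 28 pairs without either had a median r of 0.96 (0.87 to 0.99), the 9 pairs with *Pf4* a median of 0.72 and the 9 with *Gp1bb* a median of 0.79. Without H3, the pairs with *Pf4* had a median r of 0.95 and those with *Gp1bb* 0.78. The looseness of *Pf4* thus rested on H3, whereas that of *Gp1bb* was present among the other 7 libraries. *Itga2b* was loosely tied to several genes there too, with an r of 0.73 with *Ppbp*, 0.74 with *Gp1ba*, 0.69 with *Gp5* and 0.68 with *Gp6*. It was closer to *Gp1bb* (r = 0.91) and *Treml1* (r = 0.94), and *Gp1bb* was close to *Treml1* (r = 0.92). The correlation of single genes with the mean of the 10 was highest for *Gp9* (r = 0.997) and lowest for *Pf4* (r = 0.752, and 0.975 without H3).

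**Figure D4:**
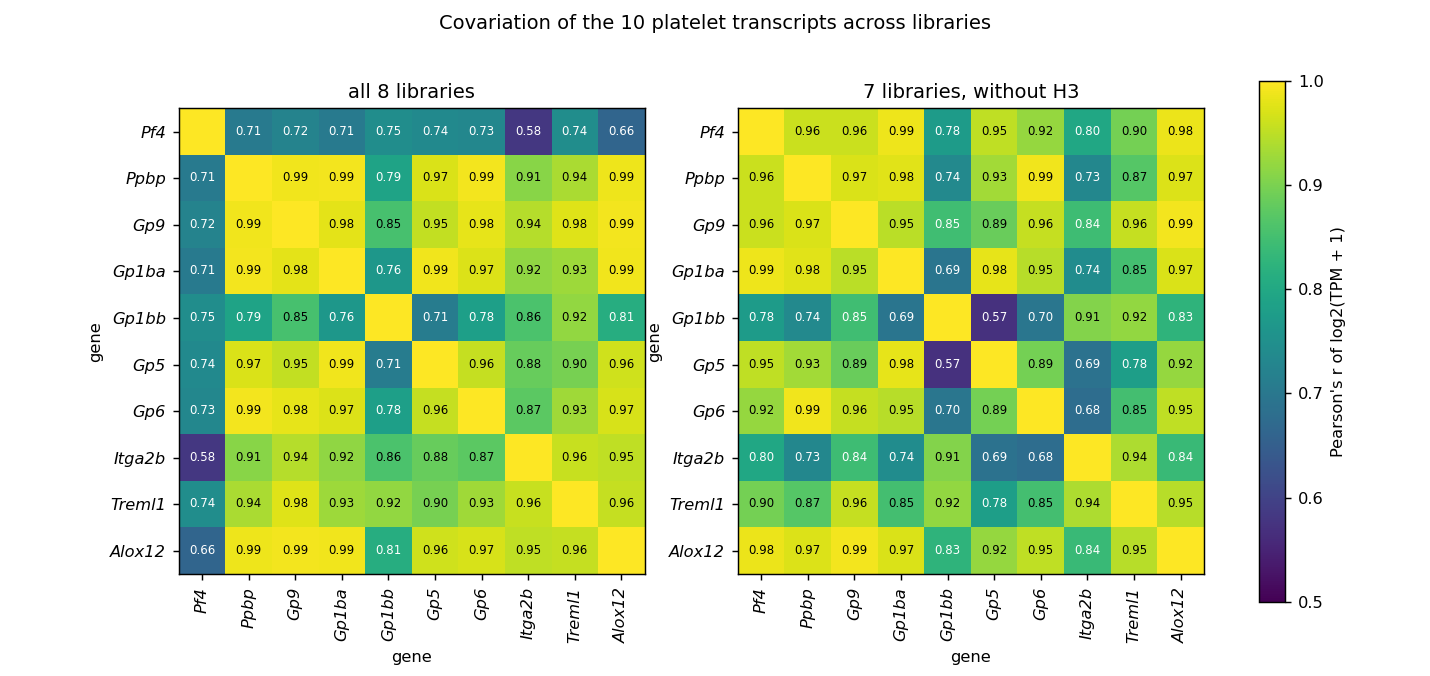
Pearson's r of log2(TPM + 1) between the 10 genes over all 8 libraries (left) and over the 7 libraries without H3 (right), with the color scale from 0.5 to 1. Pf4 stands apart on the left (r of 0.58 to 0.75 with the others) and not on the right, where Gp1bb and Itga2b are loosely tied to Ppbp, Gp1ba, Gp5 and Gp6 (r of 0.57 to 0.74) and close to each other (0.91).

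The genes outside the set whose pattern was most like the mean of the 10, over 8 libraries and among 14954 genes, were *Angpt1* (r = 0.99), *Slamf1* (0.99), *Slc6a4* (0.98), *Myl9* (0.97), *Sertad1* (0.97), *Stx11* (0.97), *Cd226* (0.97), *Pithd1* (0.97), *Col12a1* (0.96) and *Notch3* (0.96). *Slc6a4*, the serotonin transporter, was at 11.7, 18.8, 14.3 and 14.6 TPM in C1 to C4 and at 6.81, 4.18, 2.22 and 6.74 TPM in H1 to H4. *Angpt1*, the TIE2 ligand angiopoietin 1, was at 3.31, 5.42, 4.54 and 4.06 TPM in C1 to C4 and at 2.95, 1.74, 0.678 and 3.06 TPM in H1 to H4. The groups did not overlap for 7 of these 10 genes, both of the latter included (2.31% of all genes, lower). This is a description only, since the mean they were matched to carries the group difference. Of the 15 other platelet genes, 15 had an r above 0.7 with the mean of the 10 (median 0.89), as did 12.9% of all genes, and their median was 0.75 without H3. An r above 0.7 was also found for 18 of 20 endothelial markers (median 0.74, and 0.0049 without H3). The same held for 10 of 13 genes that platelets share with endothelium (median 0.79, and 0.35 without H3).

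Markers of other cell types also differed between libraries, most of all in H3, and their part in the differences of the 10 genes was not tested. The summed TPM of the 20 endothelial markers was 100.4% of the control mean in H1 and 107% in H2, and it was 5.29% in H3 and 51.7% in H4. In H1 and H2, at that endothelial level, the summed TPM of the 10 platelet genes was 47.6 and 37.6% of its control mean. The median r of the endothelial markers with the mean of the 10 was 0.74 over 8 libraries and 0.0049 without H3. The 3 pan-leukocyte genes summed to 18.6 to 42.9 TPM in 7 libraries and to 326 TPM in H3, and the 8 myeloid genes had a median r of -0.89 (-0.72 without H3). The 8 fibroblast and pericyte genes summed to 156, 99.6, 1135 and 260 TPM in H1 to H4 (201, 128, 1460 and 335% of the control mean) and to 58.0 to 110 TPM in control libraries. Of these 8 genes 5 had a log2 difference above 0 and 3 below it, and their r with the mean of the 10 had a median of -0.17 (-0.92 to 0.92). Their 2 most abundant genes, the fibroblast genes *Col3a1* and *Dcn*, exceeded the whole control range in H1 to H4, with an r of -0.90 and -0.92 with the mean of the 10. *Rgs5*, a pericyte gene looked up after its values were seen, was below every control library in all 4 (r = 0.92), as were 2.31% of all genes tested. The pericyte genes *Pdgfrb* (r = 0.24) and *Cspg4* (r = 0.39), looked up in the same way, overlapped the control libraries. Of all 14964 genes tested, 754 lay wholly above or wholly below the control libraries in H1 to H4. The 9 erythroid genes found in the files, markers of red cells, summed to 103 to 555 TPM in control and 90.9 to 260 TPM in end*Foxf1*+/- libraries, with overlap between the groups. Their sum was 49.2, 87.6, 30.6 and 59.1% of the control mean in H1 to H4. Of the 6 erythroid genes that passed the filter, 6 had a log2 difference below 0 (median -0.53).

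Without H3, each of the 10 genes was still lower on average, with a median log2 difference of -0.96 (0.01 for the median of all genes). *Gp1bb* then had the largest difference (-1.54) and *Pf4* the smallest (-0.77). Without H3 and H4, which leaves the 2 end*Foxf1*+/- libraries with a control level of endothelial markers, the median was -1.21 (0.14 for all genes), and the differences ran from -0.98 (*Pf4*) to -1.36 (*Gp9*). The groups then did not overlap for any of the 10 genes, a separation found for 4.19% of all genes in that setting. They did not overlap for 9 of the 10 genes without C1 (lower in 3.64% of all genes) and for 10 without H4 (3.65%). When the genes were set relative to the mean of the 20 endothelial markers, the median difference was -0.29, *Pf4* was higher in end*Foxf1*+/- libraries (0.46), and the median of all genes was 1.02.

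**Figure D5:**
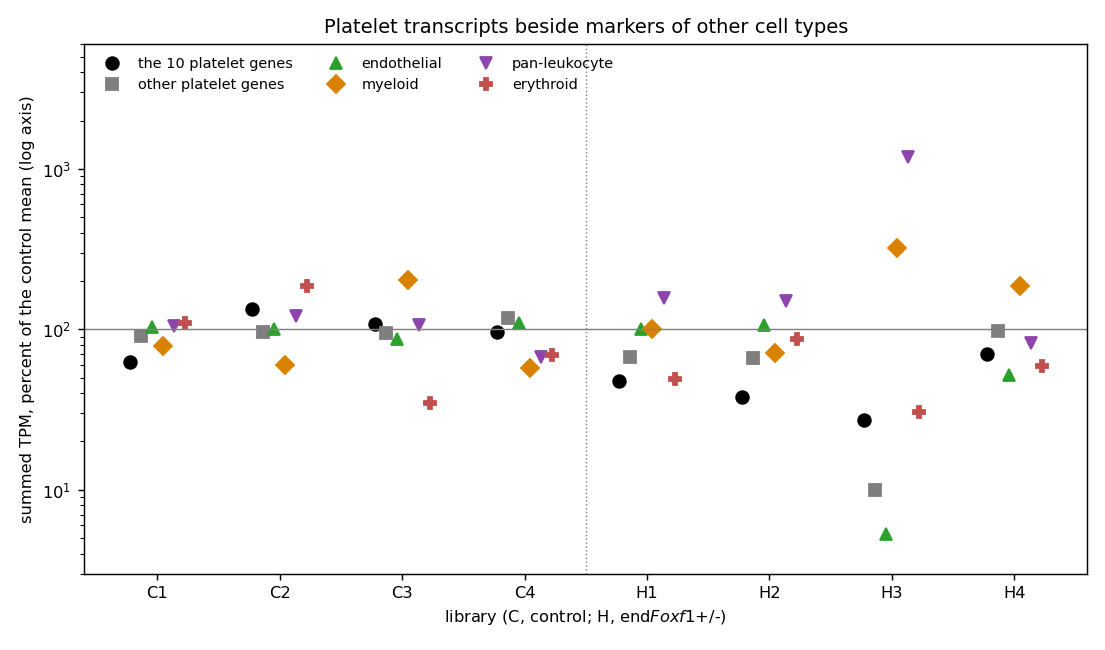
Summed TPM of the 10 platelet genes and of 5 lists of markers in each library, as a percent of the control mean on a log axis, with control libraries left of the dotted line. In H1 and H2 the 10 platelet genes (47.6 and 37.6%) lie below the endothelial markers (100.4 and 107%), and in H3 the endothelial markers fall to 5.29% while the pan-leukocyte markers reach 1188%.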

How the data were processed

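RNA-seq of CD45-CD31+ cells in 4 control and 4 end*Foxf1*+/- libraries was analysed as deposited. The deposited values are TPM that the authors computed per gene symbol, and per the submitters' processing notes TopHat, Cufflinks, Subread and DESeq2 were used with GRCm38 and mm10, in roles not given in the sources used here. TPM keep no depth, so precision rests on the spread between libraries. Groups were taken from the labels, and the libraries of each group were numbered in the order of their labels, as names only. Differences were estimated on log2(TPM + 1) with limma 3.58.1 in R 4.3.3 (lmFit, eBayes with trend) over the 14964 genes that reached 1 TPM in 4 or more libraries, and p was adjusted by Benjamini-Hochberg over all of them (threshold 0.05). The study's DESeq2 step needs counts and was not repeated. The step was tested on simulated data. Percent of control mean is the ratio of mean TPM. Correlations were computed with numpy 2.4.6 and pandas 2.3.3, with ranks from scipy 1.17.1, and carry no p, since the members were selected on the same libraries. The members and the marker lists were chosen with earlier results of these data known. Named genes were the 10 members, *Foxf1*, *Pecam1*, *Ptprc*, the other platelet genes, up to 5 genes of each shared list by mean TPM and up to 2 of each other marker list by mean TPM. The 10 genes most like the member mean and genes overlapping a member were also named. Genes named after their values were seen are marked where they appear. Coordinates are from GENCODE vM21, promoters from RefSeq (GRCm38.p6), with 10 of 10 members matched. *Mpig6b* is listed as *G6b*, and 1 erythroid gene was not matched. As alternatives, the pseudocount was set to 0.1 or 5, the filter was dropped or raised to 5 TPM, and the fit was repeated with 2 scalings, values relative to endothelial markers, eBayes without trend, array weights, and libraries left out.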

Additional observations from a re-analysis of the deposited data

Results flagged for a closer look

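In 10 of 82 groups of 4 libraries tested by Dixon's rule, 1 library lay farther from the other 3 than the rule allows. The rule's rate of about 1 group in 20 holds for independent values with a normal distribution. Here TPM were used without a log, and some sums contain genes that were also tested, so this count is not set against that rate. No explanation is weighed here. Of the 10, 6 were in H3: *Clec1b* at 5.97 TPM (43.6 to 45.5 in the other end*Foxf1*+/- libraries), *Rasgrp2* at 18.5 TPM (156 to 180), *Ptprc* at 91.2 TPM (6.61 to 16.5), and the summed TPM of the lymphocyte markers at 58.9 (18.3 to 25.1), of the pan-leukocyte markers at 326 (22.7 to 42.9) and of the fibroblast and pericyte markers at 1135 (99.6 to 260). *Slc35d3*, which did not pass the filter, was at 0.264 TPM in H2 and at 0 to 0.0292 TPM in the other 3.

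Among the control libraries, *Clec1b* was at 80.0 TPM in C2 (67.8 to 69.4 in the other 3). In C3 the summed TPM of the myeloid markers was 5082 (1441 to 1967) and that of the epithelial markers 28899 (5920 to 9603). *Lyz2* alone held 4955 TPM of that myeloid sum (1351 to 1875 TPM in the other 3). *Cd68*, the next most abundant myeloid marker, was at 48.2 TPM in C3 and within the range of the other 3 (25.9 to 57.5 TPM). None of the 10 platelet genes had a library that met the rule in either group.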

How the results depend on the processing

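The difference of the 10 members was recomputed 180 times under 18 fits, and 179 values were below 0. Dropping or raising the filter, or using eBayes without trend, leaves a difference unchanged. The other fits reuse the same libraries for genes selected on this contrast, so nothing is read from this count. The value above 0 was that of *Pf4* relative to the endothelial markers (0.46). The median of the members was then -0.29, that of the other platelet genes 0.30 and that of all genes 1.02. The summed TPM of the markers was at 5.29% of its control mean in H3 and 51.7% in H4. In that setting 1 gene was called and 1425 genes did not overlap in either direction, but in the lower direction 0 members and 0.0601% of all genes did not overlap. With array weights, which set H3 to 0.0643 and H4 to 0.178, 148 genes were called, among them 2 listed platelet genes, *G6b* (log2 difference -1.26 ± 0.23 SE, adjusted p = 0.0383 by limma) and *Fermt3* (-1.04 ± 0.18 SE, adjusted p = 0.0362), the latter named after its value was seen. In the other settings 0 of the listed platelet genes was called. Without H3 and H4 together, 3 genes were called, 3652 did not overlap, counted in both directions, and 10 members did not (lower in 4.19% of all genes). With 1 library left out, the called genes ranged from 0 to 1, and genes without overlap, counted in both directions, from 946 to 1528 (754 over 8 libraries). Members without overlap ranged from 4 to 10, all lower, against 2.60 to 5.76% of all genes in the lower direction. The median of the members ranged from -1.72 (without H4) to -0.96 (without H3). That of the other platelet genes ranged from -1.37 (without H4) to -0.48 (without H3), and the median r of the members from 0.91 to 0.97. The cause of these changes was not tested. With quantile normalization or median ratio scaling the median of all genes was -0.01 and that of the members -1.31 and -1.29. The median r was 0.79 with the 2 libraries farthest from the median of one gene left out and 0.80 for deviations from the group means without H3, and it stayed within 0.1 of 0.93 in the other settings tried. No paired analysis was possible because each number in the labels belongs to a single library, and the order within C1 to C4 and H1 to H4 ties no library to one of the other group.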

Other observations

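Of 12 genes that platelets share with leukocytes, 7 had a log2 difference below 0 and 5 above it, with a median of -0.15, and 0 had an adjusted p under 0.05 by limma. Without adjustment 2 were lower at a p under 0.05 (2.77% of all genes), *Cd226* and *Fermt3*, the latter named after its value was seen, and 1 was higher (2.82% of all genes). The higher gene was *Fcer1g*, the signalling chain with which GP6 pairs. It was at 56.6, 79.5, 62.7 and 30.9 TPM in C1 to C4 and at 75.0, 116, 709 and 95.0 TPM in H1 to H4 (log2 difference 1.5 ± 0.65 SE, adjusted p = 0.79 by limma). *Srgn*, the proteoglycan core of granules, was at 494 to 598 TPM in control libraries and at 595, 655, 263 and 339 TPM in H1 to H4.

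*Plek*, the protein kinase C substrate pleckstrin, was at 32.8, 61.2, 50.0 and 52.0 TPM in C1 to C4 and at 28.5, 25.0, 42.2 and 52.3 TPM in H1 to H4. It was thus below every control library in H1 and H2 and inside the control range in H3 and H4. *Gata1*, the transcription factor of megakaryocytes and red cells, was at 0.975 to 3.34 TPM in control libraries and at 1.35, 1.06, 0.267 and 2.28 TPM in H1 to H4.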
